A study of Mus musculus with 12 samples.

Results

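The late-stage change within SOD1 G93A astrocyte samples was examined by setting 3 arrays from SOD1 G93A mice of 120 days against 3 arrays from SOD1 G93A mice of 90 days, which are 6 of the 12 arrays of the series. The samples were chosen by their titles alone, and all 45037 probe sets other than controls were tested. The SOD1 G93A mice had been bred onto C57Bl/6 and carry an ALS-linked mutant of human SOD1 as a transgene, driven by the human SOD1 promoter, where ALS is amyotrophic lateral sclerosis. The NTg mice of 90 and 120 days (3 arrays each) were non-transgenic littermates. The transgene itself was not measured, since the probe sets are those of mouse genes. No animal was treated, and each array held the RNA of a different mouse, labelled as male. Cells named astrocytes had been cut from frozen sections of lumbar spinal cord by laser capture microdissection, after toluidine blue staining in the labels and ALDH1L1 staining in the methods, and their RNA was amplified before hybridisation to a whole-genome Affymetrix mouse array. The question was which transcripts differ between the symptomatic age of 90 days and the late-stage age of 120 days in the mutant mice, and whether NTg mice of the same ages show the same difference.

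Astrocytes clear glutamate and potassium from around synapses and supply neurons with lactate and lipids. In injured spinal cord they become reactive, with more of the intermediate filaments glial fibrillary acidic protein and vimentin, while microglia, the resident phagocytes, leave their resting state. In SOD1 mutant mice motor neurons of the ventral horn are lost as the disease advances, so a captured astrocyte lies among activated microglia and degenerating processes.

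Before any result, the transcripts of the sex chromosomes went against the labels. Xist, the X chromosome RNA of cells with 2 X chromosomes, had deposited intensities of 0.4, 0.4 and 2.8 in the SOD1 G93A arrays of 90 days and of 845.9, 1237.1 and 1010.5 in those of 120 days. Its intensities were 0.4, 5.2 and 1.1 in NTg mice of 90 days and 1028.3, 855.1 and 895.6 in NTg mice of 120 days. The Y-linked translation factor gene Eif2s3y went the other way, with 151.9, 257.3 and 410.6 at 90 days and 0.2, 0.5 and 31.8 at 120 days in SOD1 G93A mice. In NTg mice it was at 183.2, 210.1 and 209, then 8.9, 1.9 and 7.7. Thus all 6 arrays of 120 days had high Xist and low Eif2s3y, and all 6 arrays of 90 days had the reverse. Not every probe set of the Y-linked genes did so. One of Uty, a histone demethylase gene, had 17.9, 10.1 and 11.3 at 90 days and 31.2, 29.9 and 50.4 at 120 days in SOD1 G93A mice, and one of Kdm5d, another, overlapped between the ages. By Xist and Eif2s3y sex went wholly with the labelled age in both genotypes, so that age, sex and any processing batch cannot be told apart in the contrast of 120 against 90 days. By both transcripts the arrays labelled as 120 days went against the label of male, whichever age they came from. How that came about, and whether arrays or labels had also been exchanged between the ages, was not tested. An exchange would turn the sign of every difference, and all signs below follow the labels. In the difference between the genotypes in that contrast, an effect of sex or batch that is the same in both genotypes cancels. An effect of sex or batch that differs between the genotypes does not cancel and cannot be told apart from it.

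**Figure D1:**
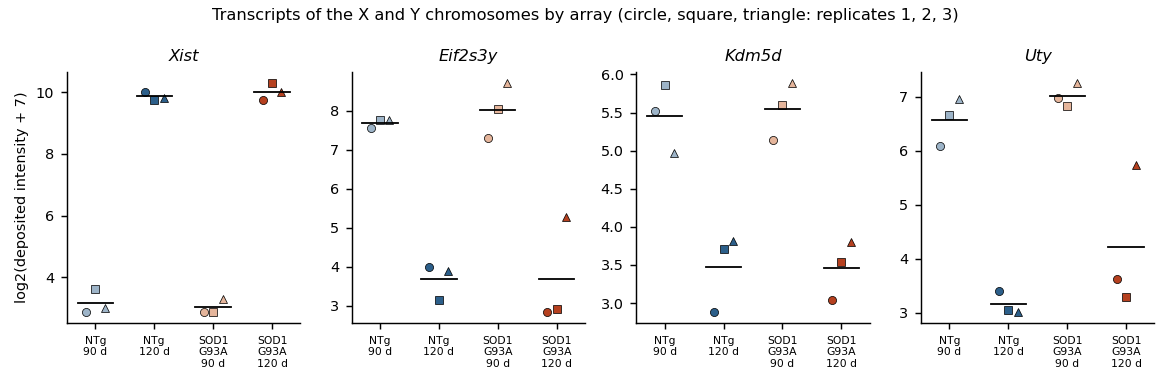
Deposited intensities on the log2(intensity + 7) scale of Xist and of the Y-linked genes Eif2s3y, Kdm5d and Uty in the 4 groups, with 1 point per array and a line at the group mean. By the probe sets plotted, Xist is high and the Y-linked genes are lower in all 120-day arrays of both genotypes, and the third SOD1 G93A array of 120 days (triangle) keeps some Eif2s3y (31.8) and Uty (46.1) signal.

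In other measures the third SOD1 G93A array of 120 days stood apart as well. Its mean correlation with its own group was 0.863, where the other 2 arrays of the group had 0.896 and 0.897, each value including the third array. With the 90-day arrays the third array had a mean correlation of 0.829, and the other 2 had 0.909 and 0.906, more than with their own group. The median intensity of the third array, 55.2, was the highest of the 12. Some genes of red blood cells were bright on the third array alone. Slc4a1, the chloride-bicarbonate exchanger of the red cell membrane, had normalized log2 signals of 3.19, 3.18 and 9.01 in the SOD1 G93A arrays of 120 days, and Hbb-b2, a beta globin, had 3.36, 3.09 and 8.83. At 90 days neither exceeded 5.45 on any SOD1 G93A array. Hba-a2, an alpha globin, was higher on all 3 arrays of 120 days, with 3.14, 3.85 and 3.92 and then 5.27, 5.38 and 6.16. Of the 8 genes of an erythroid list 5 were measured, and their mean signal was between 4.12 and 4.44 at 90 days and was 3.62, 4.31 and 7.22 at 120 days. Median intensities ran from 27.8 to 29.8 at 90 days and from 38.8 to 55.2 at 120 days in SOD1 G93A mice, and from 24.9 to 30.4 and from 27.9 to 37.1 in NTg mice. The log2 ratio of the 3′ to the 5′ Gapdh control, which is higher where the RNA copies are shorter, was 4.15 ± 0.46 (SD, n = 3) at 90 days and 4.71 ± 0.39 (SD, n = 3) at 120 days in SOD1 G93A mice, and 3.95 ± 0.61 and 4.86 ± 0.26 in NTg mice (SD, n = 3). Their part in the results below was not tested.

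Signals below are log2(intensity + 7) after quantile normalization of the 6 arrays of a genotype together, the offset of 7 being the 20th percentile of all intensities, and differences of dim probe sets are understated by it. Where a gene has several probe sets the brightest stands for it, and a gene is said to rise or fall only where the Benjamini-Hochberg adjusted p of limma was under 0.05 over all probe sets. All 7 defining astrocyte markers lay above the median of all probe sets (5.44) at both ages. Slc1a2, the main glutamate transporter of astrocytes, Gja1, a gap junction channel, and Aldoc, a glycolytic enzyme, had signals between 11.57 and 12.88 on the 6 arrays. Other cells were present in the captured material. Of 5 microglial markers, 5 lay above that median at 90 days and 4 at 120 days, as did 3 of 3 measured oligodendrocyte markers and 3 of 3 neuronal markers at both ages, while none of the T cell, B cell, neutrophil and erythroid markers did. Among the oligodendrocyte markers Mbp was brighter in SOD1 G93A mice than any of the 7 astrocyte markers. Its signal was 14.39 in every mouse of the younger age and 14.12 in every mouse of the older age. Mobp ran from 12.36 to 13.85 and Mog from 7.93 to 9.11. The share of each cell type was not estimated. In such samples fewer cells of a type and less RNA per cell cannot be told apart.

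Over all probe sets, 32 changed between 90 and 120 days in SOD1 G93A mice (0.0711% of 45037), of which 14 rose (0.0311%) and 18 fell (0.04%). With the values as deposited 339 rose and 48 fell, and with median centring 61 rose and 203 fell, so the split between directions depended on the scaling. At an unadjusted p under 0.05 there were 6580 probe sets (14.6%). Of the 32, 3 were probe sets of Xist and 2 were the Y-linked Eif2s3y and Kdm5d, 12 had no single gene symbol, and the rest belonged to 15 other genes. Leaving out any 1 of the 6 arrays left between 3 and 7 calls. The calls came to 3 without the third 90-day array or the second 120-day array, to 4 without the first or second 90-day array or the first 120-day array, and to 7 without the third 120-day array.

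**Figure D2:**
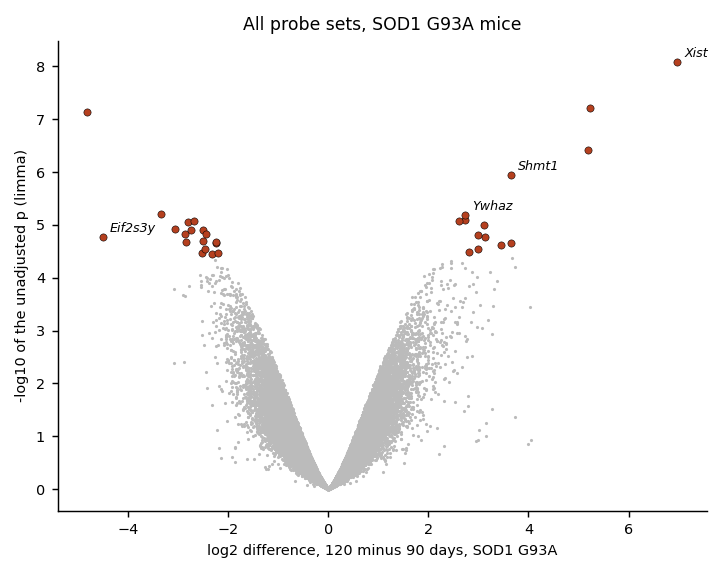
Each point is a probe set, with its log2 difference of 120 minus 90 days in SOD1 G93A mice on the x axis and the -log10 of its unadjusted limma p on the y axis. The 32 probe sets past the adjusted threshold (large points) are led by Xist on the right, with Eif2s3y among those on the left.

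By the brightest probe set, 7 genes passed (0.0385% of 18193). Xist rose by 5.19 by this probe set (standard error 0.39, adjusted p = 0.00429) and Eif2s3y fell by -4.51 (standard error 0.54, adjusted p = 0.0388). The others were Shmt1, Snhg16, Spg21, Clec2l and Sncg. The probe set with the largest fall had no single symbol, with signals of 8.13, 8.45 and 8.70 and then 3.54, 3.63 and 3.66. In NTg mice that probe set fell as well, by -5.57 (adjusted p = 0.000153 in limma), from 8.80, 8.89 and 8.36 to 3.45, 3.05 and 2.84. Like Eif2s3y it was thus high on every 90-day array and low on every 120-day array of both genotypes. Without a symbol it had no chromosome here, so whether it is sex-linked was not tested. It was not counted with the Y-linked probe sets, whose number can therefore be too low. Shmt1, a cytosolic enzyme of folate metabolism that interconverts serine and glycine, had signals of 6.68, 6.13 and 6.47 at 90 days and of 10.01, 9.86 and 10.37 at 120 days. It rose by a log2 difference of 3.65 (standard error 0.31, adjusted p = 0.0104 in limma), the largest rise after Xist, and the ages did not overlap. Its other 3 probe sets had differences from -0.36 to 0.02. In NTg mice Shmt1 had a difference of 2.30 (adjusted p = 0.0616), again with no overlap. Sncg, the gamma-synuclein gene of sensory and motor neurons, had 9.26, 9.42 and 9.73 at 90 days and 7.12, 6.12 and 6.61 at 120 days. It fell by a log2 difference of -2.85 (adjusted p = 0.0397), and in NTg mice it fell by -2.77 (adjusted p = 0.0337). Snhg16, a host gene of small nucleolar RNAs, rose from 3.52, 3.64 and 3.61 to 6.33, 5.99 and 6.31, and Spg21, which codes for maspardin of the endosomes, fell from 6.06, 6.07 and 5.84 to 3.46, 3.41 and 3.05. Clec2l, a C-type lectin gene of brain, fell by -2.87 (adjusted p = 0.0386) and differed by -0.02 in NTg mice.

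Ywhaz, which codes for an adaptor protein of the 14-3-3 family, shows how far the calls can depend on the probe set. One dimmer probe set of the gene rose by 2.73, while the other 6 ran from -0.74 to 1.30 and none of them passed. Over all genes with several probe sets, 3394 of 9010 (37.7%) had probe sets whose differences lay over 1 log2 unit apart. Among genes described in the text, another probe set had the opposite sign in Snhg16 (-0.66), Sox4 (-0.63), Laptm5 (-0.45), Cryab (-1.02), Baz1a (-0.54), Stat2 (0.48) and Trak2 (0.49), among others. A spread of over 1 unit was found for 73 of the 120 genes named by the rule that have several.

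Behind these calls, the genes with the smallest unadjusted p in which no array of one age overlapped the other, and whose brighter age lay above the median of all probe sets, were Bzw2, Sox4, Speer4cos, Igfbp3, Hmmr, Duoxa1, Odc1, Parp3 and Sesn2 on the side higher at 120 days, with log2 differences from 1.92 to 2.74. Sox4, a transcription factor of progenitor and reactive cells, had 6.55, 6.88 and 6.16 at 90 days and 8.63, 8.98 and 9.35 at 120 days (adjusted p = 0.0639). Odc1, the first enzyme of polyamine synthesis, had 9.36, 9.53 and 9.52 and then 11.20, 11.72 and 11.53 (adjusted p = 0.0674). On the lower side they were Adgrl3, Arf5, Fam227b, Hoxa7, Nat8, Nat8f5, Taf15 and Tepsin, with differences from -2.43 to -1.91. Taf15, an RNA-binding protein, had 7.83, 7.44 and 7.94 at 90 days and 5.70, 5.66 and 6.04 at 120 days (adjusted p = 0.0692), and it fell in NTg mice by -2.10 (adjusted p = 0.0374). None of these passed in SOD1 G93A mice. In a fit of all 12 arrays, normalized together and with the spread estimated over the 4 groups, 1238 probe sets passed for SOD1 G93A mice (584 higher, 1.3%, and 654 lower, 1.45%, in all 2.75%), and all 32 were among them. For NTg mice it called 389 (0.864%), 90 higher (0.2%) and 299 lower (0.664%). By brightest probe set, 1.15% of genes were higher and 1.45% were lower in that fit. Its values are named as such below, and only where they passed. Aspg, Cxcl10, Gpnmb and Slc1a2, also described below, did not pass in it (adjusted p = 0.124, 0.065, 0.0683 and 0.095). NTg arrays had mean correlations with their own group of 0.938 to 0.955, and SOD1 G93A arrays of 120 days of 0.863 to 0.897. The shared spread can thus be too small for genes that vary more in SOD1 G93A mice.

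Gene lists, chosen with earlier results of these data known, were described by their members. No member of any list passed in the fit of the 6 arrays. For each list the text gives how many measured members had all 3 arrays of 120 days on one side of all 3 arrays of 90 days. Of all genes, 10.6% did so upwards and 11.9% downwards in SOD1 G93A mice, and 14.6% and 13.5% in NTg mice. Among genes with a mean above the median of all probe sets at either age, 11.9% did so upwards and 15.3% downwards in SOD1 G93A mice. Lists of bright genes are to be read beside the latter shares. The median log2 difference over all genes was -0.02 in SOD1 G93A and 0.02 in NTg mice. With the values as deposited it was 0.21 and with median centring -0.33 in SOD1 G93A mice, and medians under these scalings, or without an array, are given relative to that of all genes. Median centring shifts each array by a constant, so relative medians are the same under both scalings by construction and count as a single alternative. Relative medians under either of these scalings were -0.75 for general neuronal genes, -0.53 for receptors, -0.76 for resting astrocyte genes, -0.58 for cholesterol synthesis, -0.59 for myelin, -0.55 for the respiratory chain, -0.74 for the proton pump, -0.29 for sodium and calcium channels and 0.40 for astrocyte reactivity.

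**Figure D3:**
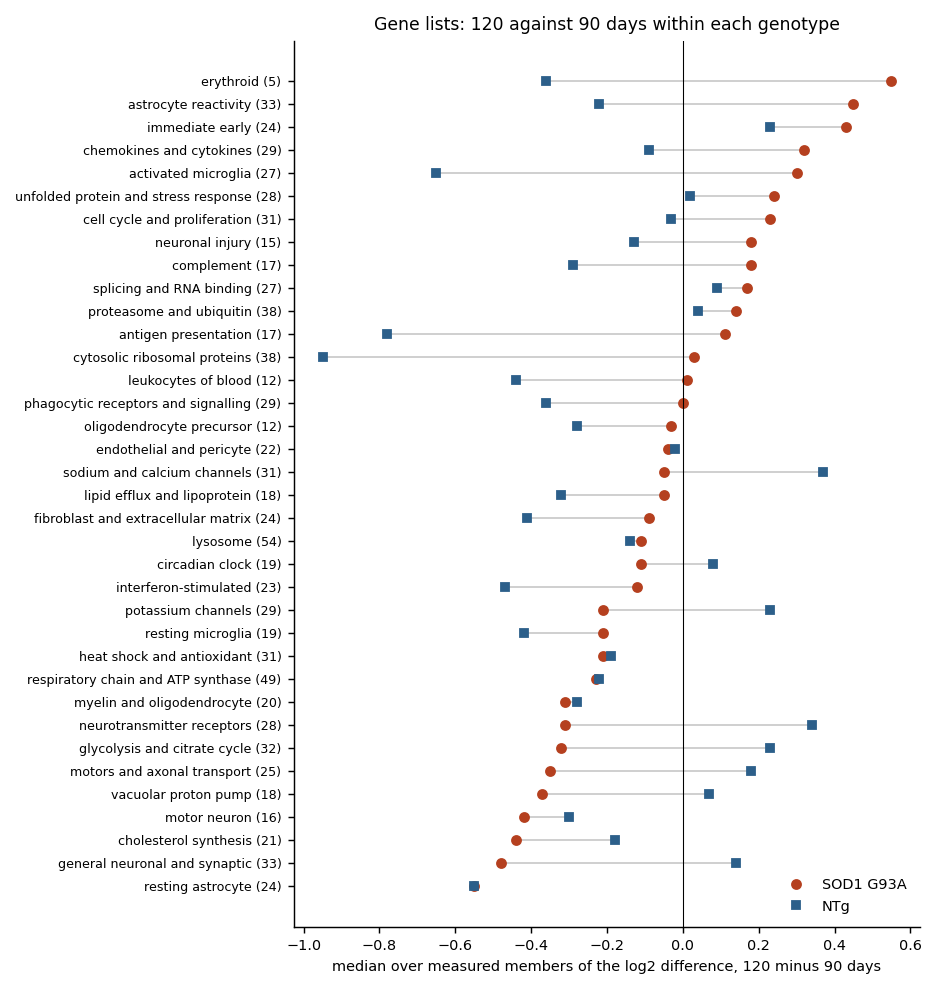
Median over the measured members (number in brackets) of the log2 difference of 120 minus 90 days, for SOD1 G93A (circles) and NTg mice (squares), with the lists ordered by the SOD1 G93A value. Markers of astrocyte reactivity are at 0.45 against -0.22 and cytosolic ribosomal proteins at 0.03 against -0.95, while resting astrocyte genes are at -0.55 in both genotypes.

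Markers of astrocyte reactivity were separated between the ages in one direction. Of 33 measured, 12 had all 120-day arrays above all 90-day arrays and none had the reverse, with a median log2 difference of 0.45. Relative to all genes the median was 0.47, and 0.61 without the third 120-day array. In NTg mice 2 were separated upwards and 8 downwards, with a median of -0.22. Vim, the intermediate filament vimentin, had signals of 9.15, 10.09 and 9.23 at 90 days and of 11.60, 12.39 and 11.66 at 120 days. Its log2 difference was 2.40 (standard error 0.38, adjusted p = 0.0705) and passed in the fit of 12 arrays (adjusted p = 0.00935), with probe sets from 1.24 to 2.68. In NTg mice its difference was 0.49 (adjusted p = 0.477). Hspb1, a small heat shock protein that binds intermediate filaments, had 8.69, 8.61 and 8.32 and then 10.41, 10.73 and 10.25, a difference of 1.93 (adjusted p = 0.068, and 0.0173 in the fit of 12 arrays), against -0.13 in NTg mice. Aspg, an asparaginase that is a marker of reactive astrocytes, differed by 1.61 (adjusted p = 0.0968) and Cxcl10, a chemokine for T cells, by 2.08 (adjusted p = 0.129), both with no overlap.

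Gfap, the filament by which reactive astrocytes are most often recognised, was not among them. It had signals of 12.25, 12.82 and 12.55 at 90 days and of 11.95, 12.54 and 11.68 at 120 days in SOD1 G93A mice, a log2 difference of -0.48 (standard error 0.34, adjusted p = 0.541) with overlapping ages. The probe sets of Gfap ran from -0.81 to 0.52 in these mice. In NTg mice it had 11.27, 9.55 and 11.35 at 90 days and 6.80, 7.87 and 6.72 at 120 days, and it fell by -3.59 (standard error 0.52, adjusted p = 0.0308). The difference between the genotypes was 3.12 with a standard error of 0.66, and it missed the threshold (adjusted p = 0.345).

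**Figure D4:**
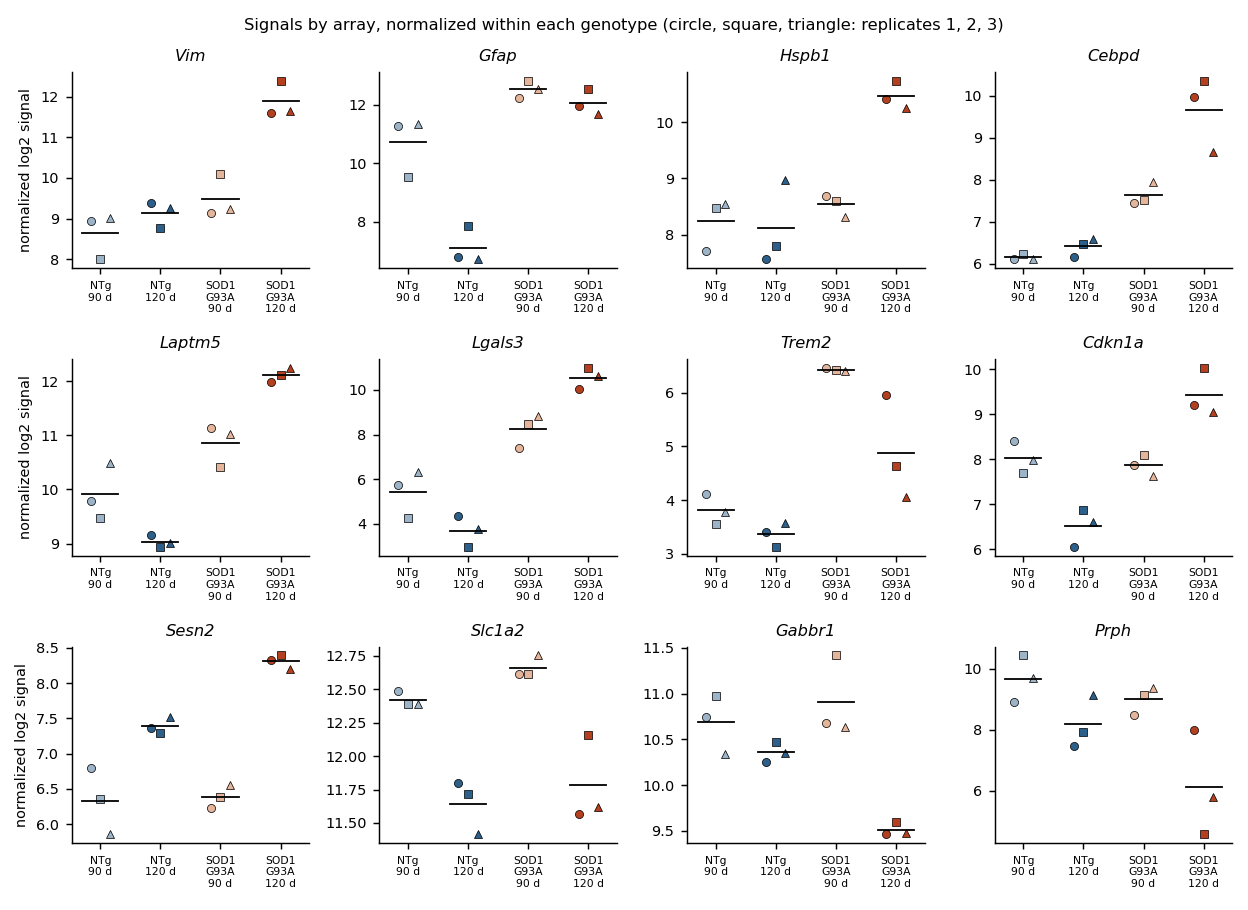
Normalized log2 signals of 12 genes on each array, with 1 point per array and a line at the mean of the 3 arrays. Levels of NTg and SOD1 G93A arrays were normalized separately. Vim, Hspb1, Cebpd, Laptm5, Lgals3 and Sesn2 are higher in every 120-day SOD1 G93A array than in every 90-day one, Gfap is not, and Trem2, Slc1a2, Gabbr1 and Prph are lower.

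Genes of resting astrocytes had lower medians at 120 days in both genotypes. Of 24 measured, 7 had all 120-day arrays below all 90-day arrays in SOD1 G93A mice and none had the reverse, 1 had a difference above 0, and the median was -0.55. Set against all genes it was -0.53, and -0.27 without the third 120-day array. In NTg mice 10 were separated downwards and 1 upwards, and the median was -0.55 as well. Slc1a2 had 12.61, 12.61 and 12.75 and then 11.57, 12.16 and 11.62, a difference of -0.88 (adjusted p = 0.249), against -0.78 (adjusted p = 0.12) in NTg mice. Ntsr2, a neurotensin receptor of astrocytes, went from 10.46, 10.34 and 10.31 to 9.11, 9.35 and 9.01, a difference of -1.22 (adjusted p = 0.13, and 0.0207 in the fit of 12 arrays), against -0.87 in NTg mice. Cldn10, a claudin of astrocytes, had -1.85 (adjusted p = 0.0255 in the fit of 12 arrays), and its lowest value of 3.49 was that of the third 120-day array. Aqp4, the water channel of astrocyte endfeet, overlapped between the ages, with 10.47, 11.27 and 11.22 against 11.19, 12.01 and 9.27. Aldh1l1, the folate enzyme used in the staining, differed by -0.08 (adjusted p = 0.927) in SOD1 G93A and by -0.97 (adjusted p = 0.0862) in NTg mice.

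Genes of activated microglia went in both directions in SOD1 G93A mice. Of 27 measured, 5 were separated upwards and 5 downwards, with a median of 0.30. Relative to all genes it was 0.33, and -0.02 under median centring or with the values as deposited, so its direction rests on the scaling. In NTg mice 13 were separated downwards and none upwards, with a median of -0.65. Lgals3, the galactose-binding lectin of phagocytes, had 7.38, 8.49 and 8.84 at 90 days and 10.02, 10.98 and 10.64 at 120 days, a log2 difference of 2.31 (adjusted p = 0.0976, and 0.0387 in the fit of 12 arrays). In NTg mice it had 5.72, 4.28 and 6.31 and then 4.36, 2.97 and 3.78. Gpnmb, a glycoprotein of lipid-laden phagocytes, differed by 1.58, and Ch25h, which makes 25-hydroxycholesterol, by 1.07, with no overlap in either. Trem2, the lipid receptor of microglia, went the other way. It had 6.46, 6.42 and 6.41 at 90 days and 5.95, 4.63 and 4.05 at 120 days, a difference of -1.55 (adjusted p = 0.202, and 0.0496 in the fit of 12 arrays), and its other probe set had 0.64.

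The resting microglial genes showed no common shift. Of 19 measured, 3 were separated upwards and 2 downwards, with a median of -0.21 against -0.42 in NTg mice. The mean signal over these genes ran from 7.19 to 7.48 on the 90-day arrays and from 7.05 to 7.33 on the 120-day arrays. Csf1r, the growth factor receptor on which microglia depend, had 12.33, 12.12 and 12.28 and then 11.96, 12.21 and 11.94. Laptm5, a lysosomal membrane protein of leukocytes, had 11.14, 10.41 and 11.03 and then 11.99, 12.12 and 12.24, a difference of 1.26 (adjusted p = 0.153), while its NTg arrays had 9.78, 9.47 and 10.48 and then 9.15, 8.94 and 9.0. C1qb, a chain of the first complement component, differed by 1.63 (adjusted p = 0.123) with no overlap, and its other probe sets by 1.70 and -0.80. The lysosome list as a whole had 5 of 54 measured members separated upwards and 13 downwards, with a median of -0.11, against 5 and 14 and a median of -0.14 in NTg mice. Set against all genes it was -0.09, 0.01 without the third 120-day array, and -0.42 under median centring or as deposited.

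Among 29 measured chemokines and cytokines, 6 were separated upwards and 2 downwards, with a median of 0.32. Set against all genes it was 0.34, 0.33 under median centring or as deposited, and 0.18 with an offset at the 50th percentile. Ccl5, a chemokine for T cells and monocytes, had 5.93, 4.94 and 4.73 at 90 days and 6.73, 9.48 and 9.21 at 120 days, a difference of 3.27 (standard error 0.70, adjusted p = 0.112, and 0.0257 in the fit of 12 arrays). Its NTg values lay between 3.11 and 4.97. Csf2rb, the shared receptor subunit for interleukin 3, interleukin 5 and GM-CSF, went from 5.82, 6.24 and 6.23 to 7.24, 7.03 and 7.69. Of 23 interferon-stimulated genes 1 was separated upwards and 1 downwards, and of 17 antigen presentation genes 1 and 2. Members went both ways. Psmb8, a subunit of the immunoproteasome, and Stat2, a factor of interferon signalling, had differences of -1.58 and -1.50 (adjusted p = 0.148 and 0.158) against -1.40 and -1.01 in NTg mice. Cd74, the invariant chain of MHC class II, had 1.09 and Irf1, an interferon regulatory factor, 0.80 (adjusted p = 0.305 and 0.314), both with no overlap, and Rsad2, the antiviral viperin, had 1.36 (adjusted p = 0.259) with overlap.

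Sesn2, Atf4, Nupr1 and Asns had the smallest p of the unfolded protein and stress genes, and passed in the fit of 12 arrays. All belong to the integrated stress response. In that response a stalled start of translation raises the transcription factor ATF4, which binds a composite element of C/EBP and ATF proteins and activates genes of amino acid supply. The 250 bases before the start of each gene, 5′ to 3′ on its own strand, are shown because these members passed together in that fit. They are RefSeq sequences of GRCm38.p6, with matches to TGATGNAA, the core of that element, on either strand in capitals.
Sesn2, chr4:132510457-132510706, minus strand: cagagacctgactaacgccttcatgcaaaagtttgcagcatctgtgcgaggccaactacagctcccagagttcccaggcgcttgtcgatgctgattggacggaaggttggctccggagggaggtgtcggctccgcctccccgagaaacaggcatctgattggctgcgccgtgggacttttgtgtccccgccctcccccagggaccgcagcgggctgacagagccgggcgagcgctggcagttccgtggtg
Atf4, chr15:80254934-80255183, plus strand: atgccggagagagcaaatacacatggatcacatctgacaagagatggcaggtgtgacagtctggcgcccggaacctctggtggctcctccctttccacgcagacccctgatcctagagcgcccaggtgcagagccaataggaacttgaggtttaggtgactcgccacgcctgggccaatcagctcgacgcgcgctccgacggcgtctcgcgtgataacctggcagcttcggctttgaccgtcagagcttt
Nupr1, chr7:126625471-126625720, minus strand: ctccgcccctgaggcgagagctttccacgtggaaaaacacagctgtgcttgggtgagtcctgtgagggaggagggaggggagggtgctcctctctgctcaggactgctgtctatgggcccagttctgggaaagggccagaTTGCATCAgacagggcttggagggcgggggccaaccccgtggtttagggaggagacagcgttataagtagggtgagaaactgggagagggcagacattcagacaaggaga
Asns, chr6:7693210-7693459, minus strand: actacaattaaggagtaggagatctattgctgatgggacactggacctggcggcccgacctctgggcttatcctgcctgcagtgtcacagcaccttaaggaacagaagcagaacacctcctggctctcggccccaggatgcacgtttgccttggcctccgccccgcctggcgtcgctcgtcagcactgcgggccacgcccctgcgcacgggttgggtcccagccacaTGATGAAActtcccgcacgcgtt
Asns held 1 match that began 23 bases before the start and Nupr1 1 match that began 110 bases before it, and the windows of Sesn2 and Atf4 held none. Over all 32851 windows of this length 3.45% held a match, and 5 of the 26 stress list genes with a window (19.2%) did. The first share counts windows and the second counts genes with a match in any of their windows. The list was also chosen by function, so the shares are not to be set against each other. A match is a description of the letters and not of binding.

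Sesn2, which restrains the growth regulator mTORC1, had 6.24, 6.38 and 6.55 at 90 days and 8.33, 8.39 and 8.21 at 120 days, a log2 difference of 1.92 (standard error 0.28, adjusted p = 0.0674, and 0.00379 in the fit of 12 arrays). Its other probe set had -0.84. Atf4 itself went from 10.00, 9.09 and 9.17 to 11.15, 11.16 and 10.89, a difference of 1.65 (adjusted p = 0.0272 in the fit of 12 arrays), where its other probe sets had 0.42 and 0.01. Asns, which makes asparagine, went from 7.84, 7.88 and 7.72 to 9.37, 9.19 and 8.89, by 1.34 (adjusted p = 0.0159 in the fit of 12 arrays). These 3 were separated upwards in NTg mice as well, by 1.06, 1.08 and 1.38, and Asns rose there (adjusted p = 0.0437). Nupr1, a stress-induced chromatin protein, was not. It had 7.68, 6.92 and 9.28 and then 10.05, 11.17 and 10.88 in SOD1 G93A mice, and 5.42, 5.70 and 7.36 and then 4.82, 4.80 and 5.81 in NTg mice. Of the 28 measured stress genes 7 were separated upwards and 2 downwards in SOD1 G93A mice, with a median of 0.24, and 6 and 4 in NTg mice, with a median of 0.02. Relative to all genes the SOD1 G93A median was 0.27, and 0.05 under median centring or as deposited.

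Heat shock and antioxidant genes had a median of -0.21 with 10 of 31 measured members separated upwards and 4 downwards. Set against all genes the median was -0.19, and 0.07 without the third 120-day array. Beside Hspb1, Cryab, a small heat shock protein of glia, differed by 1.02, Hspa1b, an inducible heat shock protein of the Hsp70 family, by 1.33 and Gpx1, a glutathione peroxidase, by 1.00. In NTg mice these had -0.36, -1.03 and -0.60. Immediate early genes had 6 of 24 members separated upwards and 2 downwards, with a median of 0.43, against 0 and 1 in NTg mice. In the fit of 12 arrays 4 passed, Cebpb, Jund and Cebpd on the higher side (adjusted p = 0.00975, 0.0334 and 0.0153) and Arc, a synaptic activity gene named here after its value was seen, on the lower side (adjusted p = 0.0466), with -1.95 in the fit of 6. Cebpd, a transcription factor of the acute phase response, had 7.44, 7.52 and 7.94 at 90 days and 9.97, 10.35 and 8.66 at 120 days, while in NTg mice its 6 arrays lay between 6.10 and 6.60. Of 31 cell cycle genes 8 were separated upwards and 3 downwards, with a median relative to all genes of 0.25 that was 0.09 without the third 120-day array. Among the former was Ccnd1, cyclin D1, with 8.41, 8.82 and 8.44 and then 9.65, 10.03 and 10.14 (adjusted p = 0.118, and 0.0175 in the fit of 12 arrays). Cdkn1a, the inhibitor p21 of cyclin-dependent kinases, had 7.87, 8.09 and 7.62 and then 9.20, 10.02 and 9.04, and in NTg mice 8.41, 7.68 and 7.98 and then 6.05, 6.86 and 6.60.

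General neuronal, receptor and motor neuron lists had medians below that of all genes in SOD1 G93A mice. The neuronal injury list did not, with 2 of 15 members separated in each direction and a median of 0.18, which relative to all genes was 0.20, and -0.03 under median centring or as deposited. Of 33 measured general neuronal and synaptic genes 1 was separated upwards and 11 downwards, with a median of -0.48, against 7 and 9 and a median of 0.14 in NTg mice. The mean signal of these genes was between 9.09 and 9.51 on the 90-day arrays and between 8.85 and 9.04 on the 120-day arrays, which did not overlap. Of 28 neurotransmitter receptor genes 1 was separated upwards and 7 downwards, with a median of -0.31 against 0.34 in NTg mice, where 9 and 4 were separated. Relative to all genes it was -0.29, and -0.20 without the third 120-day array. Gabbr1, a subunit of the metabotropic GABA receptor, had 10.68, 11.42 and 10.63 and then 9.46, 9.59 and 9.48, a difference of -1.40 (adjusted p = 0.128, and 0.0245 in the fit of 12 arrays), against -0.33 in NTg mice. Gabra2, a subunit of the GABA-gated chloride channel, had -1.42 (adjusted p = 0.0255 in the fit of 12 arrays) against -0.47. Sodium and calcium channel genes had a median of -0.05, near that of all genes, with 2 of 31 separated upwards and 5 downwards, where 13 were separated upwards and none downwards in NTg mice.

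Motor neuron genes had 4 of 16 measured members separated downwards and none upwards, with a median of -0.42, against none and 1 and a median of -0.30 in NTg mice. Prph, the intermediate filament peripherin of motor neurons, had 8.49, 9.13 and 9.38 at 90 days and 7.98, 4.57 and 5.79 at 120 days, a log2 difference of -2.89 (standard error 0.75, adjusted p = 0.158, and 0.0446 in the fit of 12 arrays), against -1.50 (adjusted p = 0.161) in NTg mice. Its 3 dimmer probe sets went the other way, from 0.40 to 1.38. Chat, which makes acetylcholine, and Slc18a3, which loads it into vesicles, differed by -0.92 and -0.88, with adjusted p of 0.312 and 0.28. Eno2, the neuronal enolase, had nearly the same difference in both genotypes, -1.34 (adjusted p = 0.117) in SOD1 G93A and -1.32 (adjusted p = 0.0478) in NTg mice. Genes of motors and axonal transport had 2 of 25 members separated upwards and 8 downwards, with a median of -0.35, and Trak2, an adaptor that links mitochondria to kinesin, had -1.79 against -1.80 in NTg mice.

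Enzymes of cholesterol synthesis had 2 of 21 measured members separated upwards and 6 downwards, with a median of -0.44, against 4 and 4 and a median of -0.18 in NTg mice. It was -0.42 relative to all genes, and -0.43 without the third 120-day array. Hmgcs1, which makes hydroxymethylglutaryl-CoA, had 12.21, 12.53 and 12.25 at 90 days and 11.45, 11.44 and 11.46 at 120 days, a difference of -0.88 (adjusted p = 0.221), and -0.52 in NTg mice. Glycolysis and citrate cycle genes had 1 of 32 separated upwards and 8 downwards, with a median of -0.32 against 0.23 in NTg mice. It was -0.30 relative to all genes, -0.15 without the third 120-day array, and -0.65 under median centring or as deposited. Pfkm, a phosphofructokinase, went from 10.16, 10.46 and 10.28 to 8.72, 8.79 and 9.10 (adjusted p = 0.105, and 0.0187 in the fit of 12 arrays). Respiratory chain genes had 13 of 49 separated downwards and 2 upwards, against 22 and 8 in NTg mice. The vacuolar proton pump, which acidifies lysosomes and synaptic vesicles, had 3 of 18 subunit genes separated downwards and none upwards, and its median relative to all genes of -0.35 was -0.14 without the third 120-day array. Genes of myelin had 5 of 20 separated downwards and none upwards, with a median of -0.31, against 9 and 1 and a median of -0.28 in NTg mice. It was -0.29 relative to all genes, and -0.08 without the third 120-day array.

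**Figure D5:**
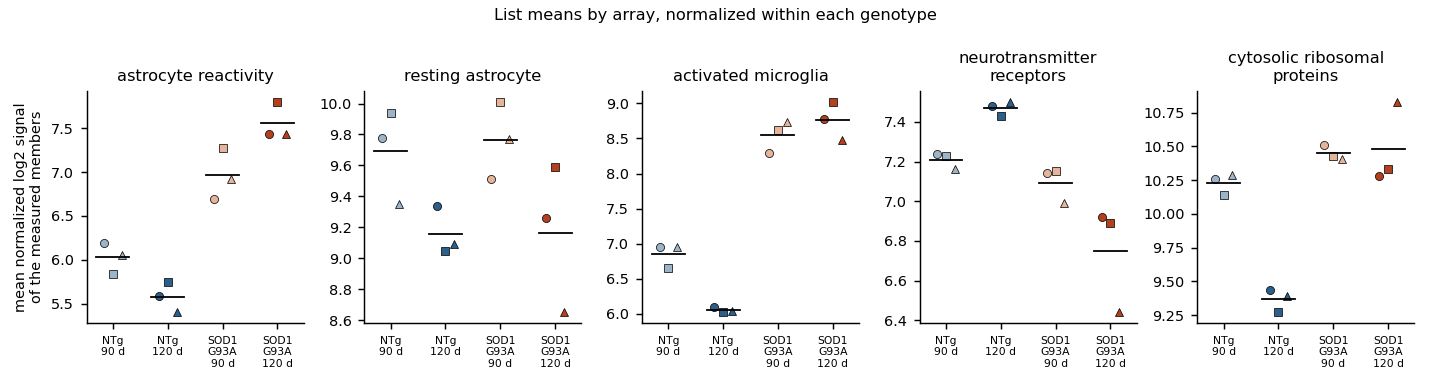
Mean normalized log2 signal over the measured members of 5 lists on each array, with a line at the group mean (circle, square and triangle for replicates 1, 2 and 3). Levels of the genotypes were normalized separately. The third 120-day SOD1 G93A array is the lowest of its group for resting astrocyte, activated microglia and neurotransmitter receptor genes and the highest for ribosomal proteins.

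The difference between 120 and 90 days was then compared between the genotypes. In NTg mice 506 probe sets changed (1.12%), of which 151 rose (0.335%) and 355 fell (0.788%). For the difference of the 2 differences no probe set passed in limma with 12 arrays (0 of 45037), 3780 had an unadjusted p under 0.05 (8.39%), and the smallest adjusted p was 0.223. Other fits called some, 19 with a trended and robust prior and 7 among probe sets above the 75th percentile. By brightest probe set, 4.32% of genes had an unadjusted p under 0.05 with a higher value in SOD1 G93A mice and 4.31% with a lower one. Beside these shares, 16 of 33 astrocyte reactivity genes, 13 of 27 activated microglial genes, 8 of 31 heat shock and antioxidant genes and 24 of 38 cytosolic ribosomal protein genes were on the higher side. On the lower side were 8 of 28 neurotransmitter receptor genes and 7 of 31 sodium and calcium channel genes. None of these members passed for the difference. The lists were chosen with earlier results of these data known, and members of a list can vary together. The counts are thus a description and not a test against the shares.

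Most cytosolic ribosomal protein genes were separated between the ages in NTg mice. There 28 of the 38 measured had all 120-day arrays below all 90-day arrays, 9 fell, and the median was -0.95. In SOD1 G93A mice 7 were separated upwards and 4 downwards with a median of 0.03. Relative to all genes it was 0.06, -0.08 without the third 120-day array, and -0.15 under median centring or as deposited, so its sign was not stable. Rps9, of the small subunit, had 10.69, 10.83 and 10.58 at 90 days and 11.64, 11.83 and 11.92 at 120 days in SOD1 G93A mice, and a difference of -0.10 in NTg mice. Its other probe sets had -0.13 and -1.43. Fau, which codes for the ribosomal protein eS30, had -1.13 (adjusted p = 0.264) in SOD1 G93A mice and fell by -1.97 (adjusted p = 0.0227) in NTg mice.

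The single genes with the smallest p for a higher difference in SOD1 G93A mice were Cdkn1a, Sox4, Igfbp3, Hbegf and Baz1a. Cdkn1a led with 3.05 (standard error 0.46, adjusted p = 0.223). Igfbp3, a binding protein of insulin-like growth factors, had 4.99, 5.46 and 5.54 and then 7.11, 7.98 and 7.64 in SOD1 G93A mice against 5.82, 5.49 and 4.47 and then 4.83, 4.70 and 4.5 in NTg mice. Hbegf, a growth factor of the EGF family, had 7.63, 7.77 and 7.67 and then 8.97, 9.57 and 9.23. On the other side were Adgrl3, Slc25a13, Sgsm3, Slc35f4 and Kif26a. Adgrl3, an adhesion receptor of synapses, had 7.63, 7.2 and 7.02 and then 5.48, 5.0 and 4.65 in SOD1 G93A mice, where its NTg arrays lay between 7.0 and 7.42 throughout. Slc25a13, a mitochondrial aspartate-glutamate carrier, had -2.00 in SOD1 G93A and 1.06 in NTg mice, a difference of -2.99 (adjusted p = 0.223). None of these 10 passed for the difference. The opposite separation of the ages in the genotypes, down in SOD1 G93A and up in NTg mice as in Slc25a13, was found in 0.423% of all genes, and the reverse as in Cdkn1a in 0.456%.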

How the data were processed

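The 12 arrays held amplified RNA of laser-captured astrocytes, with 1 array per mouse and 3 mice per group. The deposited intensity values were made by the authors with MAS5, whose version is not given in the sources used here, and scaled so that the 2% trimmed mean of every array is 100. The PLIER values of the study's own tests were not used here. Depth has no meaning for arrays, and their number limits the precision.

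Groups came from sample titles. The 6 arrays of each genotype were taken as log2(intensity + 7), quantile normalized together and fitted in limma 3.58.1 (R 4.3.3) with 2 group means, empirical Bayes moderation and Benjamini-Hochberg adjustment at 0.05 over 45037 probe sets (45101 less 64 controls). The genotype difference was fitted on all 12 arrays normalized together, with 4 group means. GEO's platform annotation gave 1 symbol for 34958 probe sets, several for 932 and none for 9211, and 18193 genes in all. The members and gene lists were chosen with earlier results of these data known. Named genes were the 12 largest rises and falls that passed with separated ages and a mean above the median (filled up by unadjusted p), from each list the 4 with the lowest p at most, per direction the 5 of lowest p for the genotype difference, and the defining markers. RIKEN and Gm names were left out. Ywhaz, Kdm5d and Uty were chosen after their values were seen. The alternatives tried were other scalings, offsets, filters, priors, fits and samples left out. The steps were tested on simulated data. Plots used matplotlib 3.10.9 (python 3.11.15).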

Additional observations from a re-analysis of the deposited data

Results flagged for a closer look

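Of the genes named by the rule, 11 had all 120-day arrays on one side of all 90-day arrays in SOD1 G93A mice and on the opposite side in NTg mice. Over all genes 0.456% went up in SOD1 G93A and down in NTg mice in this way, and 0.423% the reverse. Of the 11, 6 (Baz1a, Cdkn1a, Hbegf, Slc25a13, Sgsm3 and Slc35f4) had been named for their small p in the genotype difference, so their number is a description and is not to be read against these shares. With 3 arrays a group no array could be examined as an outlier, which needs 4. The values are differences of log2 differences, SOD1 G93A minus NTg, and in the limma fit of 12 arrays none of them had an adjusted p under 0.05. Higher in SOD1 G93A mice were Baz1a, a chromatin remodelling factor, at 3.12, Cdkn1a at 3.05, Hspa1b at 2.36, Laptm5 at 2.08, Csf2rb at 2.04, Hbegf at 2.01 and Gpx1 at 1.58. Lower were Slc25a13 at -2.99, Sgsm3 at -2.97, Slc35f4 at -2.06 and Gal, the neuropeptide galanin, at -1.30. In Sgsm3, which codes for an activator of a small GTPase, the NTg arrays rose from 4.52, 5.07 and 4.11 to 6.10, 7.49 and 6.82 (adjusted p = 0.045 in limma), and the SOD1 G93A arrays had 4.54, 5.27 and 4.44 and then 3.79, 3.93 and 4.0.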

How the results depend on the processing

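For SOD1 G93A mice the count of 32 probe sets became 387 with values as deposited, 264 with median centring, 1238 with 12 arrays, 3 with an offset of 1, 172 with an offset at the 50th percentile, 259 and 477 with probe sets above the 50th and 75th percentile, 292 with array weights, 328 with a trended and robust prior, 3 with an unmoderated linear model, 20 with treat against a fold of 1.2 and 3 with the replicate block. Leaving out 1 array gave 3 to 7. Leaving out X and Y genes, an alternative chosen after seeing the data, gave 22. In NTg mice the count of 506 became 1022 with median centring, 7 with an offset of 1, 1955 with an offset at the 50th percentile, 2195 and 2530 with the 2 filters, 14 with the replicate block and 5 to 12 without 1 array. The genotype difference, with 0 calls, had 7 above the 75th percentile, 19 with the trended and robust prior, 0 with the replicate block and 0 to 5 without 1 array (5 without the second NTg array of 90 days). No named gene that passed changed sign under any alternative, but each of the 7 lost its call under some, from Xist in 5 of 18 to Sncg in 10 of 19. Same-numbered arrays came from different mice, and the correlations of their deviations from the group means were -0.064, 0.059 and -0.095, so the numbers share only a name. The cause of these shifts was not tested. Probe sets near the offset carry little precision, since background and present calls were not analysed here.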

Other observations

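Several lists not described above had medians near that of all genes in SOD1 G93A mice after quantile normalization. Genes of oligodendrocyte precursors had a median log2 difference of -0.03 over 12 measured members, with 3 separated downwards and none upwards. Among the former was Vcan, the proteoglycan versican, at -1.33 (adjusted p = 0.0393 in the limma fit of 12 arrays), with probe sets from -1.33 to 1.03. In NTg mice Vcan fell by -1.91 (adjusted p = 0.031). Endothelial and pericyte genes had -0.04 over 22, fibroblast and extracellular matrix genes -0.09 over 24 and leukocyte genes 0.01 over 12. Under median centring or as deposited the medians relative to all genes were further off. They were -0.34 for precursors, -0.22 for endothelial and pericyte genes, -0.26 for fibroblast and matrix genes and 0.37 for leukocyte genes. Without the third 120-day array the relative medians were 0.07, -0.05, -0.33 and -0.08 in the same order. Phagocytic receptors and their signalling had 3 of 29 members separated upwards and 5 downwards, and complement genes 2 of 17 upwards and none downwards, with a median of 0.18.

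Proteasome and ubiquitin genes had 8 of 38 members separated upwards and 2 downwards, with a median of 0.14. It was 0.16 relative to all genes, and -0.27 under median centring or as deposited. Psmb4 and Psmc4, of the core and the cap of the proteasome, differed by 1.43 and 1.30 and passed in the fit of 12 arrays (adjusted p = 0.0158 and 0.0272), and Psmc4 rose in NTg mice by 1.35 (adjusted p = 0.039). Splicing genes had 4 of 27 separated in each direction. Sf3b1, a core splicing factor, differed by 1.49 (adjusted p = 0.0263 in the fit of 12 arrays).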
